A study of Caenorhabditis elegans with 2 samples.

Results

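The genes described here are named for proteins of the large subunit of the cytosolic ribosome of Caenorhabditis elegans. Membership rests on the symbol alone, and the place of each protein in the mature subunit was not checked. They are the protein-coding genes of the Ensembl annotation whose symbol starts with rpl- or rla-, 50 of 19973 protein-coding genes on the nuclear chromosomes. Occupancy of the transcription factor ELT-3 was mapped by chromatin immunoprecipitation sequencing (ChIP-seq) in 1 group of 2 biological replicates, and there was no second condition. Both replicates were whole L1 larvae, of mixed sex and of strain OP75, with genotype unc-119(ed3) III; wgIs75. A stable transgene in that strain makes ELT-3 with GFP and FLAG at its C-terminus, and the labels do not say whether the antibody saw ELT-3 or the tag. Read depth is unknown for peak lists, and no control library was used here. In whole larvae a site bound in few cells and a site bound weakly in many cannot be told apart.

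The cytosolic ribosome joins a small subunit, which reads the mRNA, to a large subunit, which makes the peptide bonds and holds the tunnel through which the new chain leaves. Its protein genes are among the most strongly expressed genes of growing larvae, and the rpl- genes and their small-subunit counterparts are made in matched amounts. ELT-3 is a GATA factor, a zinc finger protein of the worm epidermis that recognises DNA around the letters GATA. In this worm, many pre-mRNAs, those of ribosomal proteins among them, lose their original 5′ end when a short spliced leader is joined to the transcript. An annotated start is therefore often the splice site, and the promoter lies some way before it.

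The group was chosen by symbol, but it was put forward because peaks at ribosomal protein genes had already been seen in these lists. Numbers of genes with a peak and their signals are therefore given as descriptions, with no test. A gene was counted when the summit of a peak lay from 1000 bp upstream to 250 bp downstream of 1 of its transcript starts, called the promoter window. Of the 50 genes, 23 had a summit of the authors' thresholded list there, 46.0% (95% Wilson interval 33.0 to 59.6%), against 3.76% of all protein-coding genes. In the whole pooled list, before the authors' reproducibility threshold, 34 genes had a summit in the window, 68.0%, against 12.2% of all. The other 16 genes had no pooled summit there. By its own name the pooled list includes background, so a weak pooled summit is not in itself a bound site.

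The sequences under the strongest peaks are shown first because they share short words. Each line gives the 101 bases centred on the summit, on the strand of the gene, read from the WBcel235 genome, the build called ce11 in the peak lists. Capitals mark 3 words in either direction. The first is ACCGTA, which reads TACGGT on the opposite strand. The second is ACACGC, which then reads GCGTGT. The third is CACTCG, which then reads CGAGTG. The windows of rpl-15 (chrIV:654874-654974, minus strand), rpl-3 (chrIII:3867528-3867628, plus strand) and rpl-20 (chrIV:4750030-4750130, minus strand) each hold all 3 words.
rpl-15: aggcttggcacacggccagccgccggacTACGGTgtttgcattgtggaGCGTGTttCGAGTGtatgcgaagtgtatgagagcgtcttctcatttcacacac
rpl-3: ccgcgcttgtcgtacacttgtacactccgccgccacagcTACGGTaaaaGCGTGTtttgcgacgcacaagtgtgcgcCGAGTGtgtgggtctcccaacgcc
rpl-20: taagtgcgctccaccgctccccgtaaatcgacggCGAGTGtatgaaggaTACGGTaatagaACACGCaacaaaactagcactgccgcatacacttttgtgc

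In rpl-15 and rpl-3 the words stand in the same order and on the same strand, and in rpl-20 they do not. A second arrangement was found in the windows of rpl-11.2 (chrX:2242951-2243051, minus strand), rpl-6 (chrIII:7208053-7208153, plus strand) and rpl-22 (chrII:5055334-5055434, plus strand), where CGAGTG, 2 further bases and ACCGTA follow each other. The same capitals are used.
rpl-11.2: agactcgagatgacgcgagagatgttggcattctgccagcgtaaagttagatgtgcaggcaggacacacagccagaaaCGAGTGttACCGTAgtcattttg
rpl-6: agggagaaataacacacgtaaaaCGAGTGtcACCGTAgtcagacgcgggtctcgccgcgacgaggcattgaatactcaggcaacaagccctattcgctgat
rpl-22: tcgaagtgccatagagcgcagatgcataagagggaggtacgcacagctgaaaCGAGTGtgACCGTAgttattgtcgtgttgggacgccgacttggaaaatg

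These 3 words were picked from the windows themselves. Among the 2080 words of 6 letters, counted on both strands, they were those whose share among the 23 windows of large-subunit genes most exceeded their share among the 599 other thresholded peaks in a promoter window, so a high share in the 23 is a property of the choice. ACCGTA was in 9 of the 23 windows (39.1%) and in 5.01% of the other 599. ACACGC was also in 9 (39.1%, against 7.01%). CACTCG was in 8 (34.8%, against 4.51%). At least 1 of the 3 was in 14 of the 23 windows (60.9%, against 14.5% of the others). At least 2 were in 9 (39.1%, against 2.0% of the others). The words do not contain each other, though ACACGC and CACTCG can overlap by a letter or more.

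The words were also counted in promoters. The small-subunit genes are not independent of the choice, since rps-10 and rps-30 share the summit windows of rpl-24.1 and rpl-39 and other rps- peaks are among the 599. In the 500 bases before the most upstream start, ACCGTA was found in 51.9% of the 27 large-subunit genes without a thresholded summit and in 35.5% of the 31 small-subunit genes, against 13.9% of all protein-coding genes. CACTCG was in 18.5% of those 27 and in 25.8% of the small-subunit genes, against 8.86% of all. ACACGC was in 7.41% of the 27 and 16.1% of the small-subunit genes, against 9.57% of all. For ACACGC these shares stand for 2 of 27 and 5 of 31 genes, and no difference was tested. In the shorter window that was planned, 250 bases before to 50 after the start, all shares were lower. ACCGTA was then in 11.1% of the 27 and 19.4% of the small-subunit genes, against 8.1% of all. CACTCG was in 3.7% and 12.9%, against 5.89%, and ACACGC in 3.7% and 9.68%, against 6.44%. These are counts in the reference sequence and are not sites of binding.

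The spaced pair, CGAGTG with 2 bases and then ACCGTA, was noticed in the windows and then counted on both strands. It was in 4 of the 23 summit windows, those of rpl-11.2, rpl-6, rpl-22 and rpl-24.1, and in 3 of the 599 others (17.4%, against 0.501%). No thresholded peak outside the promoter windows held it (0 of 640). In the 500 bases before a start it was found in 5 of the 23 genes with a thresholded summit, in 3 of the 27 without, which were rpl-21, rpl-29 and rpl-34, and in 5 of the 31 small-subunit genes, which were rps-7, rps-10, rps-13, rps-23 and rps-29. Of all 19973 protein-coding genes, 44 held it there (0.22%). Divergent neighbours such as rpl-24.1 and rps-10 can hold the same copy.

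A longer run of 14 bases was identical in 3 summit windows, in capitals here for rpl-39 (chrV:7776271-7776371, minus strand) and rpl-7A (chrIV:4390632-4390732, minus strand). It was the longest run, in either direction, shared by 3 of the 23 windows, and rpl-13 is the other gene.
rpl-39: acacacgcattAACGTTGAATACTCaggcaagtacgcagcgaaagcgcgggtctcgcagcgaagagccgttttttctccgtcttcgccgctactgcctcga
rpl-7A: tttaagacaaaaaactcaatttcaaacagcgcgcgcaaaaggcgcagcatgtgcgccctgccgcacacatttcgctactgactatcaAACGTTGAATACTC

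That run was also in 4 of the other 599 promoter windows (0.668%). In the 500 bases before the start it was in 4 of 31 small-subunit genes (12.9%), against 0.0601% of all protein-coding genes. It was also there in 1 of the 27 large-subunit genes without a thresholded summit. From 250 bases before to 50 after the start, the run was in 9.68% of the small-subunit genes and 0.0% of the 27, against 0.0451% of all. The small-subunit genes are not independent of its choice, since rps-30 shares the window of rpl-39. Among the strongest peaks, rpl-12 (chrIV:13240623-13240723, minus strand) shows that a high signal occurred without any of these words, so its line has no capitals.
rpl-12: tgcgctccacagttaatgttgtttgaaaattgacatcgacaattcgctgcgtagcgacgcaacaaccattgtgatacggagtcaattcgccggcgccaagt

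The usual motif of GATA factors is WGATAR, which stands for TGATAA or TGATAG or AGATAA or AGATAG, searched on both strands. It was less frequent at these summits than at other promoter peaks. Of the 23 peaks, 5 had the motif no farther than 50 bp from the summit, 21.7% (Wilson interval 9.66 to 41.9%), against 275 of the 599 others, 45.9% (42.0 to 49.9%), and 55.3% of the 640 thresholded peaks outside promoter windows. The difference was not tested. In windows of the same size 500 bp to the left and right, 13.0% and 8.7% of the large-subunit peaks had it, against 20.9% and 17.0% of the other promoter peaks. The 5 genes were rpl-7A, rpl-1, rpl-24.2, rpl-24.1 and rpl-31, and none is among the 8 strongest. With the whole motif required within 25 bp of the summit, it was in 0 of 23 peaks, against 24.0% of other promoter peaks. For a count of 0 a limit of 3 counts was taken, 13.0% of the 23, which is not a Wilson limit. The motif of rpl-24.1 was centred 23.5 bp from the summit and so crossed that edge. The line for rpl-7A is repeated here with its motif, TGATAG read on the opposite strand, in capitals.
rpl-7A: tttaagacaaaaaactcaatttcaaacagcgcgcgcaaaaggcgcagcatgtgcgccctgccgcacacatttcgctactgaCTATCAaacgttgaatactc

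GC content moved with this comparison. The 101-base windows had a median GC content of 49.5% at the large-subunit peaks, against 44.6% at the other promoter peaks, and its part in the motif counts was not tested. In promoters as a whole the motif was common: the 500 bases before the start held WGATAR in 60.9% of the 23 genes with a thresholded summit and in 74.1% of the 27 without, against 71.4% of all protein-coding genes. From 250 bases before to 50 after the start, WGATAR was in 39.1% of the 23 genes and 55.6% of the 27, against 54.5% of all. GAGAGA, also counted on both strands, was in 2 of the 23 summit windows (8.7%), against 25.7% of the other promoter windows. In the promoters of the 23 genes, GAGAGA was in 26.1% over the 500 bases before the start, against 30.0% of all genes. In the shorter promoter window it was in 26.1%, against 21.8% of all.

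**Figure D1:**
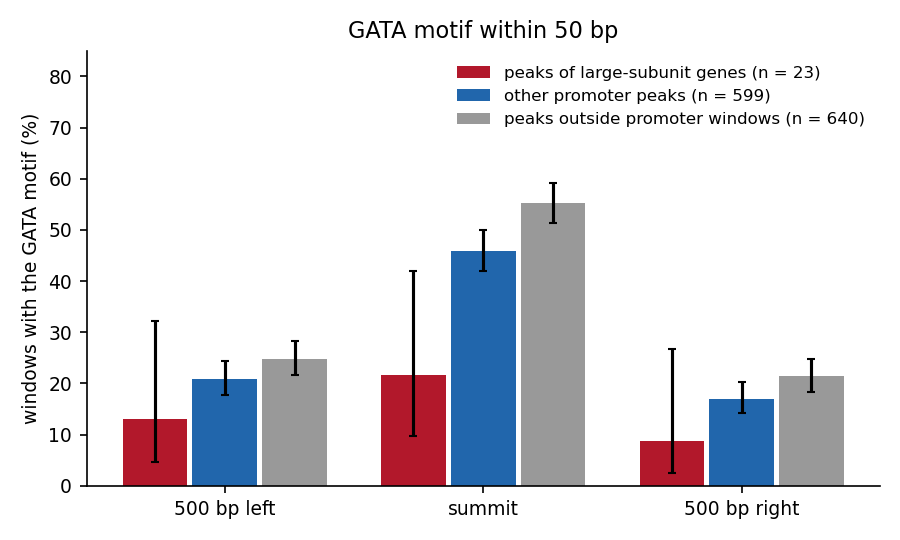
Share of windows (%) with the GATA motif WGATAR within 50 bp of the summit and of points 500 bp to its left and right, for the 23 peaks of large-subunit genes, 599 other promoter peaks and 640 peaks outside promoter windows. Bars are shares and lines are 95% Wilson intervals; at the summit the large-subunit peaks stand at 21.7% and the other promoter peaks at 45.9%.

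The strength of the peaks spread widely among the genes. A peak's signal is the value that the authors' caller gave it, in a unit the sources used here do not state, so it is set only beside other peaks of the same list. Among the 23 genes with a thresholded summit, the signal of the strongest peak in the window ran from 45.2 to 243.9 with a median of 62.79, against a median of 55.22 for the other promoter peaks of that list. Peaks of large-subunit genes were 3 of the 5 strongest of all 1262 thresholded peaks, 5 of the 50 strongest and 6 of the 100 strongest, and 15 of the 23 had at least the median signal of the list. A few very strong peaks thus stood above a larger number close to the middle of the list.

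Around the peptidyl transferase centre, where peptide bonds form, the genes lay at both ends. Roles given here are those known from ribosomes of yeast and other species. The protein of rpl-3 reaches towards that centre. Its peak (chrIII:3867450-3867705) had a pooled signal of 243.1 with the summit at -276 bp, where negative is upstream of the nearest start, and signals of 142.1 in replicate 1 and 109.4 in replicate 2. It ranked 2 of all listed peaks in replicate 1 and 5 in replicate 2. By contrast rpl-2 and rpl-10, whose proteins also line the core of the subunit, had no pooled summit in the window. The strongest listed peak at rpl-2 ranked 14072 in replicate 1, with none in replicate 2, and that at rpl-10 ranked 4490 in replicate 2, with none in replicate 1.

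The strongest peak of the group was at rpl-15, for a core protein of the subunit (chrIV:654796-655051). Its pooled signal was 243.9 with the summit at -348 bp, and its signals were 121.5 in replicate 1 and 124.1 in replicate 2, at ranks 3 and 2. The third of the leading peaks, at rpl-20 (chrIV:4750033-4750124), had a pooled signal of 223.3 with the summit at -302 bp. In the replicates it had signals of 120.99 and 105.5, at ranks 4 and 6. These 3 leading peaks were within the 6 strongest of each replicate, and their summits lay no more than 4 bp from the pooled summit in either.

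Genes for the exit tunnel and its mouth were mixed. The peak of rpl-35, whose protein sits at the mouth, had a pooled signal of 152.6 at -458 bp, with 65.5 at rank 55 in replicate 1 and 91.3 at rank 11 in replicate 2. That of rpl-4, whose protein reaches into the tunnel wall, had 98.4 at -292 bp, with ranks 203 and 83. The small tunnel protein of rpl-39 had 61.2 at -242 bp, with ranks 505 and 2096, and rpl-31, at the mouth, 48.4 at -297 bp, with ranks 586 and 1289. The first 2 were stronger in the ranking of replicate 2 and the last 2 in that of replicate 1. Further tunnel genes missed the threshold: rpl-17 had a pooled signal of 39.1 and rpl-25.2 of 30.7, while rpl-19, rpl-26 and rpl-25.1 had no pooled summit in the window.

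Of the genes for the stalk, which calls in the GTPase factors of translation, 1 had a thresholded summit. This was rpl-12, whose protein sits at the base beside P0. It had a peak of pooled signal 140.9 (chrIV:13240545-13240800) with the summit at -22 bp, the closest of the 23 thresholded ones, in a window shared with lin-54. It had 64.4 at rank 56 in replicate 1 and 74.7 at rank 26 in replicate 2. Of the rla- genes, for the acidic proteins P0, P1 and P2 that form the rest of the stalk, none had a thresholded summit. Only rla-1 had a pooled one, with a signal of 25.1 at -659 bp, 33 bp from the start of Y37E3.8, at ranks 10660 and 4387. At rla-0 replicate 2 listed a peak at rank 5492 and replicate 1 none, and rla-2 had no listed summit in any of the lists. The movable arm on the other side of the subunit holds the protein of rpl-1, whose peak had 62.8 at -307 bp, with ranks 493 and 546.

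Of the proteins that bind the 5S ribosomal RNA, rpl-11.2 had a peak of pooled signal 120.2 (chrX:2242873-2243128) at -383 bp. Its signals were 52.6 at rank 120 in replicate 1 and 68.0 at rank 31 in replicate 2. At rpl-5 the pooled signal was 45.2 at -396 bp, the weakest of the 23, with ranks 825 and 2466. The paralogue rpl-11.1 had no listed summit in any list. The 2 rpl-11 genes therefore differed as far as the lists allow, from the strongest 100 peaks to nothing listed.

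Other gene pairs of one name also differed. At rpl-41.2 the pooled signal was 45.7 at -256 bp, with ranks 841 and 2484, and rpl-41.1, the next gene upstream on the same strand, had no pooled summit in its window. The 2 rpl-24 genes, paired here by symbol only, both had a thresholded summit. That of rpl-24.2 had 62.4 at -152 bp (ranks 1006 and 401), and that of rpl-24.1 had 53.3 at -238 bp. At rpl-24.1 replicate 2 ranked the peak 311, and replicate 1 listed no overlapping peak and only a summit of rank 15644 elsewhere in the window. Of the rpl-25 pair, rpl-25.2 had only the weak pooled peak, and rpl-25.1 had a peak of rank 8618 in replicate 2 alone. The genes rpl-36 and rpl-36.A, alike only in symbol, had pooled signals of 41.5 and 34.8, both under the threshold.

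The remaining genes with a thresholded summit fell between 45.8 and 82.3. The larger of these were rpl-43 with 82.3 at -736 bp (signals of 44.4 and 37.4 in the replicates), rpl-7A with 81.9 at -92 bp (ranks 363 and 178) and rpl-6 with 73.0 at -344 bp (577 and 218). These 3 were ranked within the strongest 577 of both replicates. Then came rpl-22 with 68.4 at -232 bp (332 and 939), rpl-28 with 59.2 at -359 bp (241 and 977) and rpl-23 with 54.1 at -301 bp. Of the 22 peaks that both replicates listed, that of rpl-23 had the most uneven ranks, at 7887 in replicate 1 and 259 in replicate 2. The last were rpl-13 with 53.4 at -261 bp (559 and 1375), rpl-9 with 49.2 at -258 bp (1497 and 912) and rpl-33 with 45.8 at -384 bp (2335 and 776).

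**Figure D2:**
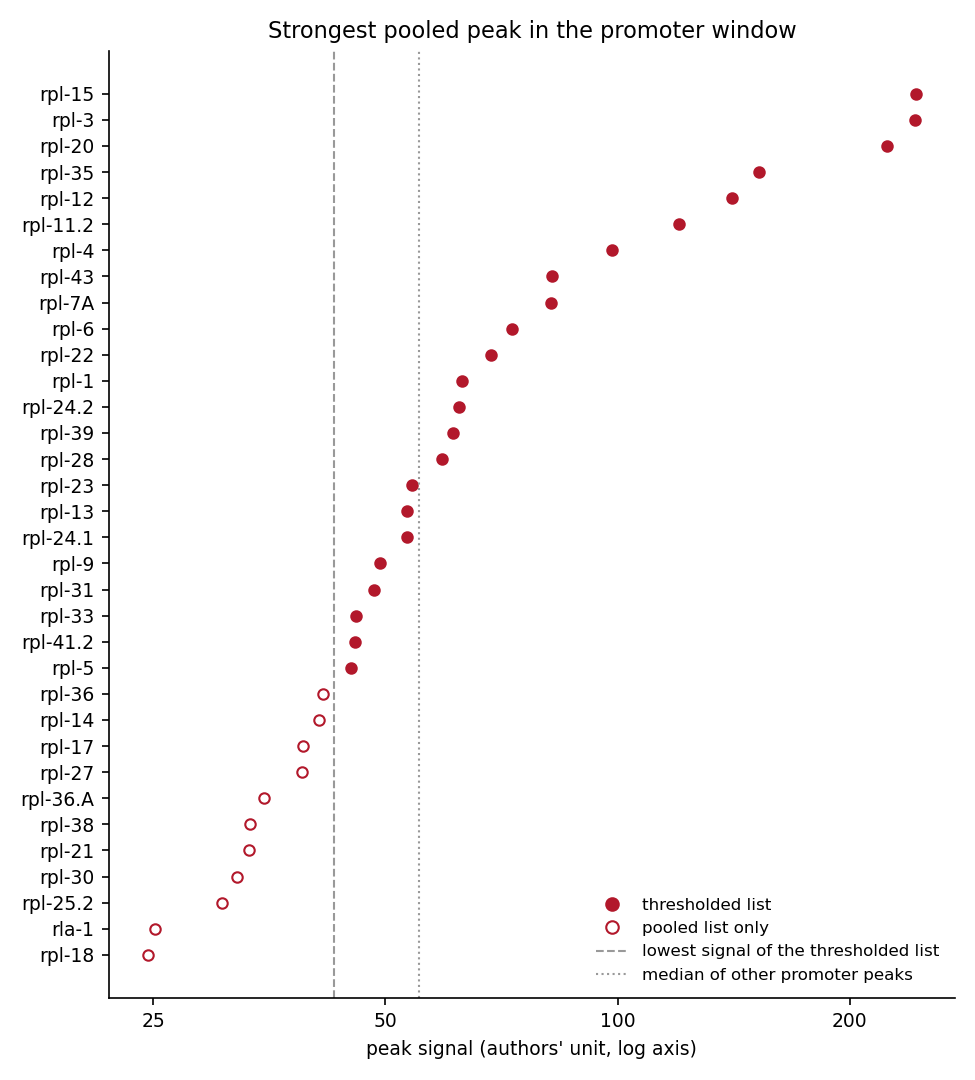
Pooled signal (authors' unit, log axis) of the strongest peak in the promoter window of the 34 large-subunit genes that have one, filled where the peak is in the thresholded list and open where it is only in the pooled list. Dashed and dotted lines mark the lowest signal of the thresholded list (42.89) and the median of other promoter peaks (55.22); rpl-15, rpl-3 and rpl-20 stand above 200 and the rest run down without a gap at the threshold.

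The threshold, which was set on reproducibility, cut through the group with little difference in signal on its 2 sides. Just inside lay rpl-5 with 45.2, rpl-41.2 with 45.7 and rpl-33 with 45.8, and just outside lay rpl-36 with 41.5, rpl-14 with 41.0 and rpl-17 with 39.1. The lowest signal of the thresholded list was 42.89. In replicates 1 and 2 the ranks were 825 and 2466 at rpl-5, 841 and 2484 at rpl-41.2, and 2335 and 776 at rpl-33. Outside, they were 1073 and 9355 at rpl-14 and 4594 and 1116 at rpl-17. At rpl-36 replicate 1 listed no overlapping peak and replicate 2 ranked it 475. The other genes with only a pooled summit were rpl-27 (39.03), rpl-36.A (34.8), rpl-38 (33.4), rpl-21 (33.3), rpl-30 (32.1), rpl-25.2 (30.7), rla-1 (25.1) and rpl-18 (24.6). At rpl-18 replicate 1 listed no overlapping peak and replicate 2 ranked it 1010, and at rpl-38 replicate 1 ranked it 1628 and replicate 2 listed none.

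The 16 genes without a pooled summit in the window were rla-0, rla-2, rpl-2, rpl-7, rpl-10, rpl-11.1, rpl-16, rpl-19, rpl-25.1, rpl-26, rpl-29, rpl-32, rpl-34, rpl-37, rpl-41.1 and rpl-42. Of these, rla-2, rpl-11.1, rpl-16, rpl-37 and rpl-42 had no summit in any list. The best ranks among the others were 1422 at rpl-32 and 1624 at rpl-7, both in replicate 2. The replicate lists and the pooled list include background by their own name. A listed summit of low rank is therefore not in itself a bound site. Of all 50 genes, 39 had some listed summit of replicate 1 in the window (78.0%, against 35.8% of all protein-coding genes) and 43 one of replicate 2 (86.0%, against 38.1%).

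Each replicate alone gave nearly the same number of genes, though not always the same genes. When the 1262 strongest peaks of a replicate were taken, as many as the thresholded list holds, 21 large-subunit genes had a summit in replicate 1 (42.0%, against 3.45% of all) and 22 in replicate 2 (44.0%, against 3.72%). Of these, 14 genes were in both and 29 in either, and no share over all genes is given for these counts. All 14 were among the 23 with a thresholded summit, and 14 of 23 peaks is 60.9%, against 54.6% of the other promoter peaks. In 17 of the 22 peaks that both replicates listed, the ranks differed by more than 2 times, 77.3%, against 52.3% of the other promoter peaks, with 11 ranked better in replicate 1 and 11 in replicate 2. The thresholded list was itself kept for reproducibility, so these shares describe the list.

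Positions were closer than strengths. The summit of the overlapping replicate peak lay a median of 3 bp from the pooled summit in replicate 1 and 4 bp in replicate 2, and at most 39 bp and 28 bp. For the other promoter peaks the medians were 5 bp and 7 bp. The pooled summit was called from the same reads, so this is not a comparison of independent positions.

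**Figure D3:**
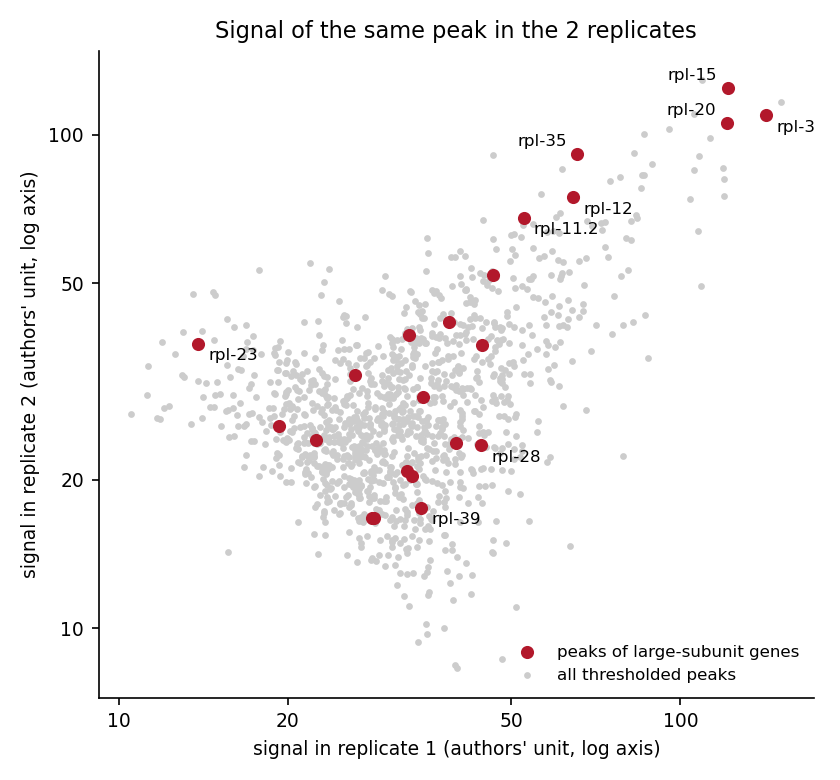
Signal of the strongest overlapping peak in replicate 1 (x axis) and replicate 2 (y axis), in the authors' unit on log axes, for 22 large-subunit peaks and for all thresholded peaks listed in both replicates. The peaks of rpl-15, rpl-3 and rpl-20 are above 100 in both replicates, while rpl-23 is at 13.8 in replicate 1 and 37.8 in replicate 2; rpl-24.1 has no overlapping peak in replicate 1 and is not plotted.

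The summits sat at a narrow range of distances before the annotated starts. All 23 lay upstream of the nearest start of the gene, with a median of -297 bp and quartiles of -353.5 and -249 bp. The other 727 genes with a thresholded summit had a median of -236 bp and quartiles of -506 and -112.5 bp, and 92.6% of them lay upstream. In a band from 200 to 400 bp upstream, chosen after the distances were seen, there were 18 of the 23 genes (78.3%) and 182 of the 727 others. The exceptions were rpl-43, rpl-35, rpl-24.2, rpl-7A and rpl-12. Of the 11 genes with only a pooled summit, whose median was -310 bp, 4 lay in that band.

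**Figure D4:**
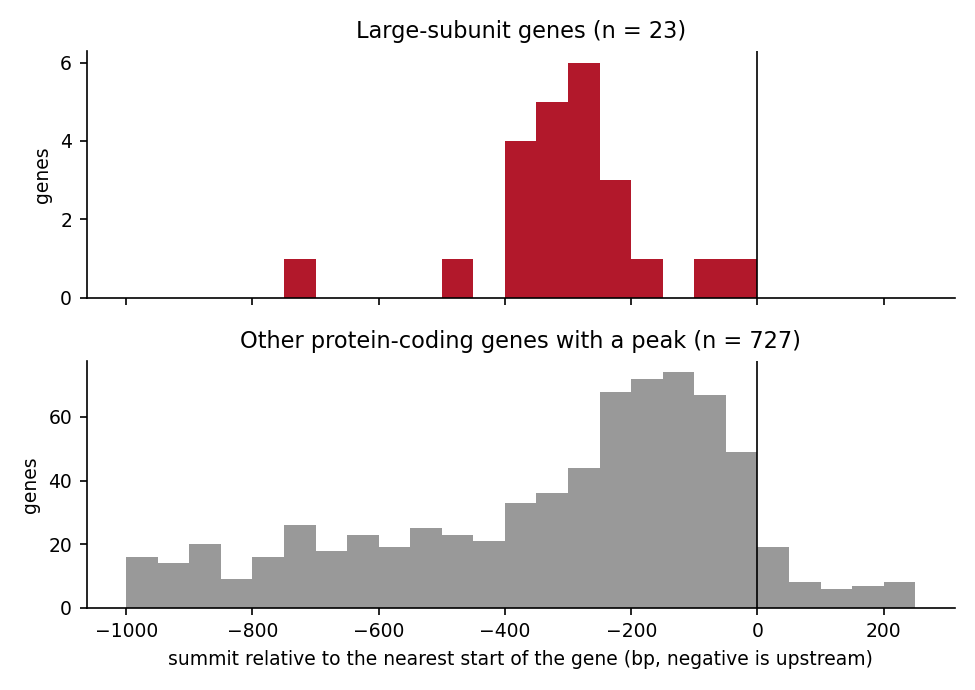
Number of genes by the distance (bp, negative is upstream) from the summit of the strongest thresholded peak to the nearest start of the gene, for 23 large-subunit genes and 727 other protein-coding genes, in bins of 50 bp. The large-subunit genes gather around a median of -297 bp, and the others are spread more widely around a median of -236 bp.

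Most of these genes had the letters of a splice acceptor at the annotated start. The letters CAG stood directly before a start in 42 of the 50 genes (84.0%), against 29.5% of all protein-coding genes, and the longer TTTCAG in 27 of the 50, against 16.7% of all. Of the exceptions in distance, rpl-12, rpl-7A and rpl-43 had no CAG directly before the start nearest to the summit, while rpl-35 had one. At rpl-43, however, TTTCAG stood within the 60 bases before that start. The start of rpl-24.2, the remaining exception, is not shown here. The 2 summits closest to a start were those of rpl-12 and rpl-7A, and that of rpl-43 was the farthest. The 3 leading genes all had TTTCAG, in capitals below, directly before the start. Each line gives 60 bases before the start and 20 after, for rpl-15 (chrIV:654557-654636, minus strand), rpl-3 (chrIII:3867794-3867873, plus strand) and rpl-20 (chrIV:4749759-4749838, minus strand).
rpl-15: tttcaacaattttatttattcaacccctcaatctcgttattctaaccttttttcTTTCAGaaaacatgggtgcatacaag
rpl-3: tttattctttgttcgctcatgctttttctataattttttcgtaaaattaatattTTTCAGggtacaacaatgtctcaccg
rpl-20: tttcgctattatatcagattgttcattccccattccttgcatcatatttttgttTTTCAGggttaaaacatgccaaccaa

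Most of these peaks stood between the large-subunit gene and a neighbour. Of the 23 summits, 22 were intergenic, and that of rpl-24.2 lay in an intron of C03D6.1, on the opposite strand. The peak was in the promoter window of another protein-coding gene in 16 of 23 cases (69.6%), while 22.7% of the other promoter peaks lay in the windows of more than 1 gene. These shares are not counted alike. A peak joined the 23 through any of its genes, so a shared peak had more ways to join, which by itself raises the first share. There were 17 such neighbours, 16 of them on the opposite strand, so that the peak lay between 2 diverging starts. The exception was swp-1 beside rpl-23. The next gene upstream was on the opposite strand for 17 of the 23 genes (73.9%), for 59.3% of the 27 without a thresholded summit and for 62.9% of the 727 other genes with one.

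Which of the 2 starts was nearer varied, and the lists cannot say which gene a shared peak serves. The summit was nearer to the large-subunit gene in 10 of the 17 pairs and nearer to the neighbour in 7. The neighbour was nearer for rpl-20 with Y17G9B.5 (-302 and -160 bp), rpl-4 with B0041.8 (-292 and -169 bp), rpl-43 with Y48B6A.1 (-736 and -185 bp), rpl-22 with ify-1 (-232 and -205 bp), rpl-28 with mrpl-49 (-359 and -160 bp), rpl-31 with sac-2 (-297 and -8 bp) and rpl-33 with farl-11 (-384 and -144 bp). The large-subunit gene was nearer for rpl-15 with K11H12.8, rpl-12 with lin-54, rpl-7A with set-21, rpl-1 with Y71F9AL.9, rpl-9 with lpd-7, rpl-5 with the collagen gene col-38 and rpl-23 with swp-1.

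Several neighbours belong to translation too. The peak at rpl-39 lay between it and rps-30, at -242 and -257 bp, and was also in the window of C26F1.3. The peak at rpl-24.1 lay between it and rps-10, at -238 and -372 bp. Both partners encode small-subunit proteins, so a single peak stands for a gene of each subunit. The neighbour mrpl-49 encodes a mitochondrial ribosomal protein, and lpd-7 is a pescadillo-like gene of ribosome assembly. Below the threshold, the pooled peak of rpl-36 was shared with rps-14 and that of rpl-30 with pab-1, the poly(A)-binding protein gene.

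Other lists of translation genes were counted the same way. The small-subunit genes had a thresholded summit in 14 of 31 cases (45.2%), with a median signal of 78.21 and a median distance of -299 bp, beside 46.0%, 62.79 and -297 bp for the large subunit. The share and the distance were close between the 2 subunits and the median signal was higher for the small one, with no test made, and 2 of the peaks are shared between them. Elongation factor genes had 4 of 6, with eef-1A.1 and eef-2 the strongest, and a median distance of -24.5 bp. Initiation factors and eIF5A had 2 of 27, iff-2 and eif-3.B.

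Mitochondrial ribosomal proteins were near the share of all genes, 3.76%, with 2 of 41 mrpl- genes (4.88%) and 1 of 29 mrps- genes (3.45%), and among the mrpl- genes is mrpl-49 with the peak it shares with rpl-28. The ribosome assembly list was a choice of 17 genes by name and not a defined gene set. It had 3 of 17, rpoa-1, fib-1 and lpd-7, the last with the peak it shares with rpl-9. Its gene eif-6 is also counted among the initiation factors. By chromosome, the thresholded large-subunit genes were 7 of 17 on I, 4 of 9 on II, 5 of 9 on III, 4 of 8 on IV, 2 of 5 on V and 1 of 2 on X, so no chromosome held them alone.

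**Figure D5:**
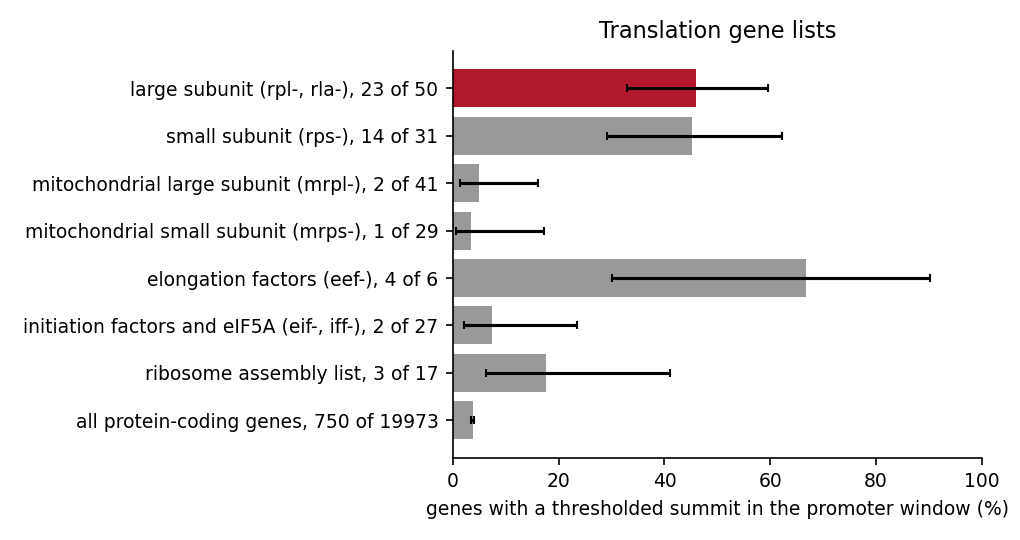
Share of genes (%) with a thresholded summit in the promoter window for 7 lists of translation genes and all protein-coding genes; lines are 95% Wilson intervals, which cover counting over genes only. The 2 cytosolic subunits stand at 46.0% and 45.2%, against 3.76% of all protein-coding genes.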

How the data were processed

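ChIP-seq peak lists of 2 biological replicates were used. Per the file lists that come with the libraries, the authors called peaks on each replicate and on the pooled alignments against control alignments, and kept pooled peaks that passed an irreproducible discovery rate. Neither aligner nor caller is named in the labels or files. The deposited signal of each peak is the authors' value, and its scale is not stated. Only ce11 lists were used, with 1-based coordinates. The Ensembl release 115 annotation and the genome sequence (RefSeq, WBcel235) are of that build; no peak passed a chromosome end.

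Peaks were ranked by signal within a list, and a replicate's value at a pooled peak is its strongest peak overlapping by at least 1 bp. N, the number of strongest replicate peaks, is 1262. Intervals (Wilson, 95%) cover counting error over genes or peaks only. No hypothesis test was made: with 1 group there is no contrast. The gene group, lists and words were chosen with earlier results of these data known. All 50 genes are named: in full the 12 strongest, the rla- genes and pairs of one name, the rest in short. Alternatives were other windows, list cut-offs, overlaps and motif settings and each replicate alone. Words of 7 letters, wider word windows, the spaced pair and the longest shared run were added after seeing the data. Procedures were tested on simulated data. Python 3.11.15, numpy 2.4.6, scipy 1.17.1 and matplotlib 3.10.9 were used.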

Additional observations from a re-analysis of the deposited data

How the results depend on the processing

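The count of genes with a thresholded summit (23) stayed within 1.5 times of itself under every alternative run except the stronger part of the list, which left 15 genes (and 10 of its peaks shared with a neighbour, against 16) because fewer peaks were used. Leaving out a replicate gave 21 to 22 genes, the nearest start alone 16, the whole pooled list 34. The median signal was 82.3 in the stronger part and 53.4 in the pooled list, and 36.5 to 38.7 in single replicates, whose scale differs. The median distance was -299.5 to -280 bp with 1 replicate. The share of peaks with WGATAR, 21.7%, was 22.7% with the narrower window, 20% in the stronger part, 18.2% with either replicate alone and 19.4% in the pooled list. It was 0% within 25 bp, 26.1% within 100 bp and 17.4% for GATAA; each step moves 23 peaks by few. The leading word was in 9 windows with 6 letters, in 8 with 7 letters (ACACTCG), and within 100 bp another word, CCTAAA, led with 12. No paired analysis was possible because there is 1 group. Depth is unknown, so it cannot be said what a deeper library would list at the 16 genes without a pooled summit.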

Other observations

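A further word, GAGACCC, was among the leading words of 7 letters and was counted on both strands. It was in 7 of the 23 summit windows of large-subunit genes, those of rpl-3, rpl-4, rpl-6, rpl-23, rpl-31, rpl-39 and rpl-41.2, and in 17 of the 599 other promoter windows (2.84%). In the 500 bases before the start it was found in 30.4% of the 23 genes with a thresholded summit, in 40.7% of the 27 without and in 22.6% of the small-subunit genes, against 4.51% of all protein-coding genes. From 250 bases before to 50 after the start, GAGACCC was in 17.4% of the 23 and 11.1% of the 27, against 2.61% of all. None of the small-subunit genes held it there (0.0%). The small-subunit genes are not independent of its choice, since rps-30 shares the window of rpl-39. Of the 7 genes, rpl-4, rpl-31 and rpl-41.2 held none of the 3 words of 6 letters.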
